A study of Mus musculus with 20 samples.

Results

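The genes described here are 9 of the 21315 gene symbols measured in microglia, the resident macrophages of the brain. They were taken by symbol, with earlier results of these data known, and all 9 passed the filter on low values in each fit. They comprise the TAM receptor tyrosine kinases Axl and Mertk, the bridging proteins Gas6, Pros1 and Mfge8, the scavenger receptors Msr1 and Stab1, and the phosphatidylserine receptors Cd300lf and Havcr2 (Tim-3). Bulk RNA sequencing gave 20 libraries from brains of 9-month-old C57BL/6 mice, in 6 conditions of genotype and sort. Microglia were sorted as CD45mid CD11b+ cells. In 14 libraries they were not selected on C3aR, the receptor of the complement peptide C3a, and represent WT (3), APP-KI (3), C3aRKO (3) and APP-KI;C3aRKO (5). In the other 6 libraries, 3 WT C3aR+ and 3 APP-KI C3aR+, the cells were further gated on a Td-tomato reporter of C3ar1. APP-KI mice carry the App NL-G-F knock-in allele, a humanized amyloid-β sequence with the Swedish, Iberian and Arctic mutations, and deposit amyloid. C3aRKO mice lack C3ar1 in all cells, not only in microglia. Both C3aR+ groups were bred with the reporter, which sits on a floxed C3ar1 allele, so that line background and sort go together in them. In all of these bulk samples, fewer cells of a type and less RNA per cell cannot be told apart.

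Dying cells and membrane debris expose phosphatidylserine, which phagocytes recognise either directly or through soluble bridging proteins. Gas6 and Pros1 bind phosphatidylserine through a vitamin K-dependent Gla domain and engage the TAM receptors, of which Axl responds to Gas6 and Mertk to both. Mfge8 joins phosphatidylserine to integrins, while Cd300lf and Havcr2 bind it themselves. Msr1, the class A scavenger receptor, takes up modified lipoproteins, and Stab1 is a large endocytic scavenger receptor of tissue macrophages and sinusoidal endothelium. Mertk is a characteristic receptor of resting microglia, and Axl is known as the TAM receptor raised in inflammatory settings.

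In the GENCODE M21 annotation of GRCm38, the assembly that the authors' mm10 corresponds to, Axl (ENSMUSG00000002602) lies on the minus strand of chr7:25757273-25788705 and Mertk (ENSMUSG00000014361) on the plus strand of chr2:128698956-128802894. Gas6 lies at chr8:13465374-13494490, Pros1 at chr16:62854307-62929346, Mfge8 at chr7:79133768-79149060 and Msr1 at chr8:39581685-39642673. Stab1 lies at chr14:31139013-31168641, Cd300lf at chr11:115116214-115133992 and Havcr2 at chr11:46454935-46481255. All 9 are protein-coding genes. RefSeq promoter windows (GRCm38.p6) were at hand for 8 of them, with none for Msr1. The 250 bases before the annotated start, written from 5′ to 3′ on each gene's own strand, are shown for both TAM receptors, for the ligand Gas6 and for Stab1, because the first 3 are ligand and receptors of one system and Stab1 moved against Axl. Capitals mark the GC box GGGCGG on either strand (CCGCCC where it lies on the other strand).
Axl, chr7:25788734-25788983, minus strand: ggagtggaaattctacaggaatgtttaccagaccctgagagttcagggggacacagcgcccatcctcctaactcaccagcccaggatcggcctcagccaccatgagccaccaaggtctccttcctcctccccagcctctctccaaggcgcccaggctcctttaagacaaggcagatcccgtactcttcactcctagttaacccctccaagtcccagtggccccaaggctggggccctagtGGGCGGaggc
Mertk, chr2:128698665-128698914, plus strand: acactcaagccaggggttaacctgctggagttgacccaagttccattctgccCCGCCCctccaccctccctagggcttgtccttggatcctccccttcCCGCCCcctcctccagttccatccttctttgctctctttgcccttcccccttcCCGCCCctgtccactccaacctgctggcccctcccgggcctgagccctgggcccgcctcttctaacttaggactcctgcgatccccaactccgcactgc
Gas6, chr8:13494536-13494785, minus strand: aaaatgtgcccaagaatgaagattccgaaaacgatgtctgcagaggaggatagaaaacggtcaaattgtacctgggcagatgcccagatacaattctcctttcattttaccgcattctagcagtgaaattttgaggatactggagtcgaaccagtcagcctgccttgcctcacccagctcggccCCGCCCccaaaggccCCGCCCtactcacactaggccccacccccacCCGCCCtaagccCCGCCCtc
Stab1, chr14:31168642-31168891, minus strand: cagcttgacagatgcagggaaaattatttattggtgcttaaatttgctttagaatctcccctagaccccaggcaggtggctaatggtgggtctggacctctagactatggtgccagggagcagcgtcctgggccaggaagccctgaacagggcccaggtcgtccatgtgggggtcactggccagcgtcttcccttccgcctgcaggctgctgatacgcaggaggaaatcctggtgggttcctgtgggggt
The Axl window held 1 GC box, the Mertk window 3 and the Gas6 window 4. Pros1 held 5 and Mfge8 held 4, whereas the windows of Stab1, Cd300lf and Havcr2 held none. Of all 32851 windows of this length, 32.7% held the motif. The AP-1 motif TGANTCA (6.7% of windows) and the PU.1 motif GAGGAAGT (2.4% of windows), searched on both strands, were each found in the Havcr2 window and in no other of the 8.

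The deposited values, recovered as whole reads, came to between 13939559 and 30388941 reads per C3aR+ library and between 42239056 and 76608464 in the others. Below, a scaled value is a gene's reads over the 75th percentile of its library, times 1 constant, which puts it on a scale near CPM. In 15 libraries between 14885 and 17445 symbols had a read. In 4 libraries only 12386 to 13249 did (APP-KI replicate 4, C3aRKO replicates 1 and 2, APP-KI;C3aRKO replicate 1), and APP-KI replicate 5 had reads for 21210. Some of the results that touch these libraries, not all, are therefore also given without them. Leaving out the 4 leaves C3aRKO with replicate 3 alone, and leaving out APP-KI replicate 5 as well leaves APP-KI with replicate 6 alone. Each p-value obtained in this way against a lone library assumes that it varies like the other groups. C3ar1 had scaled values of 39.8 to 80.2 in the 8 knockout libraries, below the 164.7 to 387.2 of the other libraries apart from those labelled WT C3aR+. The libraries labelled WT C3aR+ held 70.9, 81.0 and 37.5, which overlaps the knockouts and goes against a selection for C3ar1 at the level of its mRNA. In limma, mean log2(scaled value + 1) of C3ar1 was 2.14 higher in APP-KI C3aR+ than in WT C3aR+ (adjusted p = 0.0010). Between APP-KI and WT not selected on C3aR it differed by -0.13 (limma, adjusted p = 0.97). The C3aR+ groups thus differed in C3ar1 mRNA as well as in genotype, which the comparison between them cannot separate. All 8 microglial markers were detected in every condition, with a summed scaled value of 9050 to 29068. In the libraries with few symbols it was 9050 (APP-KI;C3aRKO replicate 1), 10432 (APP-KI replicate 4), 16096 and 23300 (C3aRKO replicates 2 and 1). The other libraries of these 3 groups held 17479 to 26988. Summed border macrophage markers (8 genes) ran from 490 to 735 in WT C3aR+, 464 to 1244 in WT and 413 to 615 in C3aRKO, against 196 to 416, 279 to 318 and 206 to 370 in APP-KI C3aR+, APP-KI and APP-KI;C3aRKO.

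**Figure D1:**
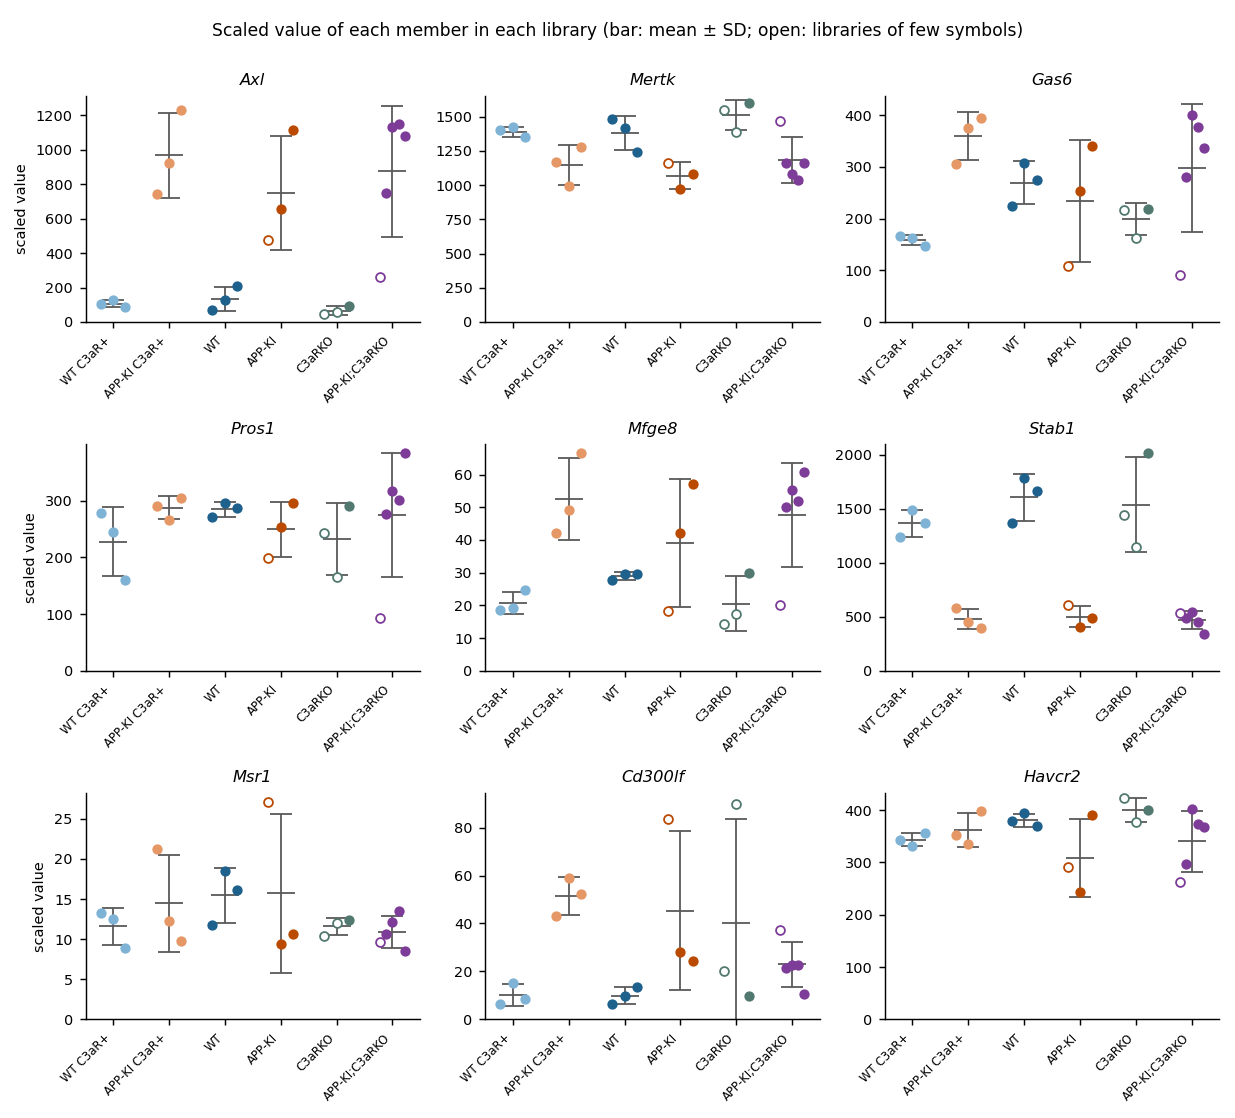
Scaled value of each of the 9 genes (vertical axis, from 0) in each library of the 6 conditions (horizontal axis), with points for libraries, bars for the mean ± SD and open points for the 4 libraries with reads for few symbols (the lower bar of Cd300lf in C3aRKO ends at 0). Axl in libraries with the APP-KI alleles lies between 261 and 1234, above the 44.4 to 206 of the others, and Stab1 between 338 and 605, below the 1151 to 2014 of the others.

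Per kilobase of exon, the only scale on which levels of different genes are compared here, Mertk had the highest level of the 9 genes in all 6 conditions, from 247 ± 22.2 (SD, n = 3) in APP-KI to 349 ± 25.5 (SD, n = 3) in C3aRKO. Msr1 was among the lowest, between 1.72 and 2.48 per kb on average. Axl and Stab1 were the genes whose places among the 9 changed most, by 4 each. Its level per kb was 13.2 ± 4.98 (SD, n = 3) in C3aRKO, 26.6 ± 13.8 in WT and 21.1 ± 3.80 in WT C3aR+, below Stab1, Havcr2, Gas6 and Pros1. It reached 149 ± 65.4 in APP-KI, 174 ± 75.5 (SD, n = 5) in APP-KI;C3aRKO and 192 ± 49.1 in APP-KI C3aR+, where only Mertk was higher on average. The ratio of Axl to Mertk per kb was 0.0247 to 0.143 in the 9 libraries without the APP-KI alleles and 0.153 to 0.959 in the 11 with them. Stab1 went the other way, from 133 to 156 per kb on average in the 3 conditions without these alleles to 45.8 to 48.7 in the 3 with them.

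**Figure D2:**
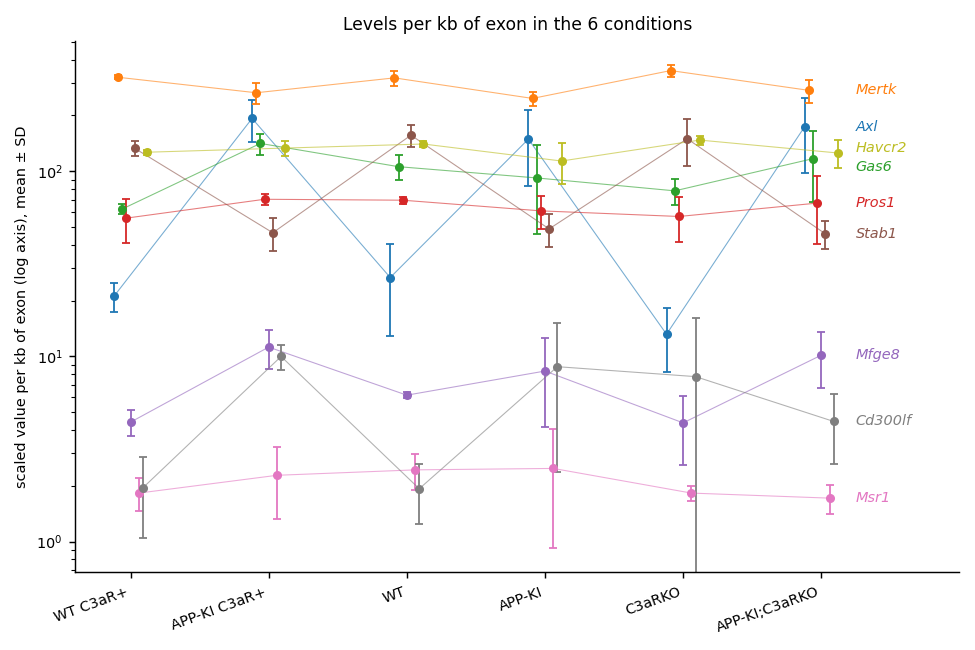
Mean scaled value per kb of exon (log axis, error bars SD) for the 9 genes in the 6 conditions, joined by thin lines for reading only. Mertk stays at the top between 247 and 349, while Axl and Stab1 exchange places wherever the APP-KI alleles are present. The lower bar of Cd300lf in C3aRKO, whose SD exceeds its mean, leaves the axis.

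Axl showed the largest difference of the 9 genes. Its scaled values in WT C3aR+ were 107, 125 and 86.5, and in APP-KI C3aR+ they were 745, 926 and 1234. In libraries not selected on C3aR they were 67.1, 129 and 206 in WT, and 476, 657 and 1114 in APP-KI. They were 44.4, 60.6 and 93.6 in C3aRKO, and 261, 748, 1131, 1152 and 1080 in APP-KI;C3aRKO. No library with the APP-KI alleles overlapped one without them, and the lowest of them was APP-KI;C3aRKO replicate 1, a library with few symbols. The difference of mean log2(scaled value + 1), tested with limma and adjusted over all genes (Benjamini-Hochberg), was 3.16 ± 0.19 (SE) in the C3aR+ libraries (adjusted p = 1.6e-05), an 8.95-fold rise. It was 2.91 ± 0.31 between APP-KI and WT (adjusted p = 5.4e-05) and 3.28 ± 0.28 between APP-KI;C3aRKO and C3aRKO (adjusted p = 3.2e-06). These were among the largest differences in each fit, exceeding those of 99.4% of genes tested in both comparisons of APP-KI with WT and of 99.6% in the third. Within the 2 series of library numbers that the unselected libraries fall into, Axl differed by 3.04 and 2.77 between APP-KI and WT. These rest on 2 APP-KI libraries against 1 WT library and on 1 against 2. Between APP-KI;C3aRKO and C3aRKO Axl differed by 3.07 and 3.57, on 2 libraries against 2 and on 3 against 1. Both C3aRKO libraries of the first series had few symbols.

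Mertk, the other TAM receptor, differed by far less and in the other direction. Its scaled values were 1401, 1423 and 1350 in WT C3aR+ and 1172, 992 and 1279 in APP-KI C3aR+, which did not overlap. They were 1482, 1421 and 1239 in WT and 1160, 969 and 1080 in APP-KI, again without overlap, and 1547, 1389 and 1601 in C3aRKO against 1468, 1162, 1085, 1035 and 1164 in APP-KI;C3aRKO. The difference was -0.29 (95% interval -0.59 to 0.02, adjusted p = 0.16) in the C3aR+ libraries, -0.40 (-0.78 to -0.02, adjusted p = 0.35) between APP-KI and WT and -0.34 (-0.68 to 0.0013, adjusted p = 0.25) in the knockouts, and none passed the test. Without the 4 libraries with few symbols Mertk was at -0.44 (adjusted p = 0.015) between APP-KI and WT and, against 1 C3aRKO library, at -0.54 (adjusted p = 0.014). When APP-KI replicate 5 was also left out it was at -0.31 (adjusted p = 0.13), with 1 APP-KI library, and at -0.56 (adjusted p = 0.0082), again against 1 C3aRKO library. Each of the 3 intervals over all libraries excludes a rise of the size seen for Axl. Settings other than leaving out a replicate put Mertk at -0.29 to -0.14 in the C3aR+ comparison. The median of all genes there was -0.17 in the main fit and moved with the setting too. It was -0.027 with median ratio scaling, -0.052 with edgeR and -0.026 with DESeq2.

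Of the ligands, Gas6 rose in the C3aR+ libraries. Its scaled values there were 167, 163 and 148 in WT C3aR+ and 307, 376 and 395 in APP-KI C3aR+, a difference of 1.16 ± 0.13 (SE, adjusted p = 0.00028), or 2.24-fold. In the unselected libraries the groups overlapped. WT held 225, 308 and 274, and APP-KI held 108, 253 and 341. C3aRKO held 217, 163 and 218, and APP-KI;C3aRKO held 90.9, 280, 401, 378 and 337. The lowest value of both groups with the APP-KI alleles was that of the library with few symbols. The difference was -0.077 (95% interval -0.90 to 0.74, adjusted p = 0.99) between APP-KI and WT and 0.21 (-0.52 to 0.94, adjusted p = 0.77) between the knockouts. Without the 4 libraries these became 0.20 (adjusted p = 0.12) and, against 1 C3aRKO library, 0.76 (adjusted p = 0.0011).

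Pros1 passed in no comparison. It held 279, 244 and 160.1 in WT C3aR+ and 291, 267 and 306 in APP-KI C3aR+, and the groups overlapped, with a difference of 0.37 (95% interval -0.04 to 0.79, adjusted p = 0.17). Among the unselected libraries it ran from 271 to 296 in WT, 198 to 297 in APP-KI, 165 to 290 in C3aRKO and 92.8 to 385 in APP-KI;C3aRKO, with its lowest value again in APP-KI;C3aRKO replicate 1. The difference between APP-KI and WT was -0.0054 (95% interval -0.70 to 0.69). The ratio of Gas6 to Pros1 per kb was 0.961 to 1.48 in WT C3aR+ and 1.69 to 2.26 in APP-KI C3aR+. Among the other libraries its ranges overlapped, with 1.34 to 1.67 in WT and 0.875 to 1.84 in APP-KI.

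Mfge8, the bridge to integrins, was expressed at a lower level and moved as Axl and Gas6 did in the C3aR+ libraries. Its scaled values were 18.5, 19.1 and 24.6 in WT C3aR+ and 42.2, 49.2 and 66.5 in APP-KI C3aR+, a difference of 1.29 ± 0.22 (SE, adjusted p = 0.0031), or 2.45-fold. Elsewhere the library with few symbols lay below every WT value in APP-KI and among the C3aRKO values in APP-KI;C3aRKO, and the others lay above the controls. WT held 27.6, 29.7 and 29.5, and APP-KI held 18.2, 42.0 and 57.0. C3aRKO held 14.3, 17.3 and 30.0, and APP-KI;C3aRKO held 20.01, 49.97, 55.3, 52.1 and 60.8. The difference was 0.52 (95% interval -0.23 to 1.27, adjusted p = 0.69) between APP-KI and WT and 0.96 (0.29 to 1.63, adjusted p = 0.085) between the knockouts. Without the 4 libraries with few symbols it was 0.77 (adjusted p = 0.00045) and, against 1 C3aRKO library, 0.89 (adjusted p = 0.00071). Within the 2 series, Mfge8 differed by 0.0055 and 0.92 between APP-KI and WT. The first rests on APP-KI replicates 4 and 5 against 1 WT library, and the second on 1 APP-KI library against 2.

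Stab1 was the one gene of the 9 that passed the test as lower in all 3 comparisons of mice with and without the APP-KI alleles. Its scaled values were 1238, 1490 and 1366 in WT C3aR+ and 583, 452 and 399 in APP-KI C3aR+. They were 1365, 1789 and 1668 in WT, and 605, 406 and 492.7 in APP-KI. They were 1445, 1151 and 2014 in C3aRKO, and 535, 492, 541, 452 and 338 in APP-KI;C3aRKO. The groups did not overlap in any of the 3. The difference was -1.53 ± 0.16 (SE, adjusted p = 0.00023) in the C3aR+ libraries, to 0.347 of the WT level, -1.65 ± 0.24 (adjusted p = 0.00093) between APP-KI and WT and -1.72 ± 0.21 (adjusted p = 0.00015) between the knockouts. Within the 2 series, on the same few libraries as for Axl, it was -1.46 and -1.81 between APP-KI and WT and -1.33 and -2.21 between the knockouts. Stab1 is also made by macrophages of the brain borders. Of 8 markers of these cells, 5 were lower in APP-KI C3aR+ than in WT C3aR+, against 9.71% of all genes. Among them were Mrc1 (-1.33), Cd163 (-1.38) and Lyve1 (-1.76). In the other 2 comparisons, 2 of 8 were lower (Mrc1 and F13a1), against 1.93% and 2.98% of all genes. Stab1 is known from endothelium too, and of 6 endothelial markers Flt1 was higher in all 3 comparisons (3.75, 4.26 and 3.80), Pecam1 was lower in the C3aR+ comparison (-2.09), and the other 4 passed in none. The part of either cell type in the result for Stab1 was not tested. Microglial markers fell too, 5 of 8 in the C3aR+ comparison, with Tmem119 at -1.45 and P2ry12 at -1.04, 2 of 8 between APP-KI and WT (Sall1 at -0.94 and Siglech at -0.70) and 1 of 8 between the knockouts (Siglech at -0.69). Of the remaining marker lists, astrocytes had 1 of 6 genes higher and 1 lower in the C3aR+ comparison and oligodendrocytes 1 of 5 higher, and between the knockouts 1 of 6 monocyte and neutrophil markers was lower and 1 of 5 oligodendrocyte markers higher. Markers of mural cells, fibroblasts and neurons passed in none, but only 4 of 6 for mural cells and fibroblasts and 1 of 6 for neurons were tested.

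Msr1, the other scavenger receptor, passed in no comparison. It held 13.3, 12.5 and 8.95 in WT C3aR+ and 21.3, 12.3 and 9.81 in APP-KI C3aR+, where the groups overlapped and the difference was 0.24 (95% interval -0.54 to 1.03, adjusted p = 0.63). In WT it held 11.8, 18.5 and 16.2, and in APP-KI it held 27.1, 9.41 and 10.7, a difference of -0.083 (-0.93 to 0.76, adjusted p = 0.99). The highest value of all 20, 27.1, came from APP-KI replicate 4, a library with few symbols. In C3aRKO Msr1 ran from 10.4 to 12.4 and in APP-KI;C3aRKO from 8.53 to 13.5. At 125 to 1400 reads per library it had few reads for a gene of its length, and the intervals reach changes close to 2-fold.

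Cd300lf, an inhibitory receptor that binds phosphatidylserine, rose in the C3aR+ libraries. It held 6.45, 15.3 and 8.38 in WT C3aR+ and 43.1, 58.8 and 52.3 in APP-KI C3aR+, a difference of 2.32 ± 0.31 (SE, adjusted p = 0.00082), or 4.98-fold. In WT it held 6.43, 9.83 and 13.5, and in APP-KI 83.4, 28.1 and 24.3, which did not overlap, but the difference of 1.68 (95% interval 0.34 to 3.01) did not pass (adjusted p = 0.21). In C3aRKO it held 20.3, 89.7 and 9.95, and in APP-KI;C3aRKO 37.1, 21.4, 22.7, 22.8 and 10.6, a difference of -0.12 (-1.31 to 1.07, adjusted p = 0.93). The library or libraries with few symbols held the highest values of each of the 3 groups that contain one. Without them the difference was 1.38 between APP-KI and WT (adjusted p = 0.018), and 1.19 (adjusted p = 0.14) when APP-KI replicate 5 was also left out. Between the knockouts it turned to 0.86 and 0.89 under these choices (adjusted p = 0.17 in both), each time against C3aRKO replicate 3 alone, which had the lowest value of its group. Within the 2 series, on the same few libraries as for Axl, Cd300lf differed by 2.74 and 1.01 between APP-KI and WT. Between APP-KI;C3aRKO and C3aRKO it differed by -0.59 and 0.77. The highest of all 20 values, 89.7, rests on 5716 reads.

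Havcr2, which encodes the checkpoint receptor Tim-3, passed in no comparison. Its scaled values were 343, 332 and 356 in WT C3aR+ and 353, 335 and 399 in APP-KI C3aR+, a difference of 0.07 (95% interval -0.18 to 0.32, adjusted p = 0.66). They were 380, 394 and 369 in WT and 291, 243 and 391 in APP-KI, a difference of -0.24 (-0.58 to 0.10, adjusted p = 0.69). They ran from 377 to 423 in C3aRKO and from 262 to 403 in APP-KI;C3aRKO, where the difference was -0.32 (-0.63 to -0.020, adjusted p = 0.21), with an interval below 0 but no pass after adjustment. Without the libraries with few symbols it was -0.080, against 1 C3aRKO library. All 3 intervals exclude a change of 2-fold or more in either direction.

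**Figure D3:**
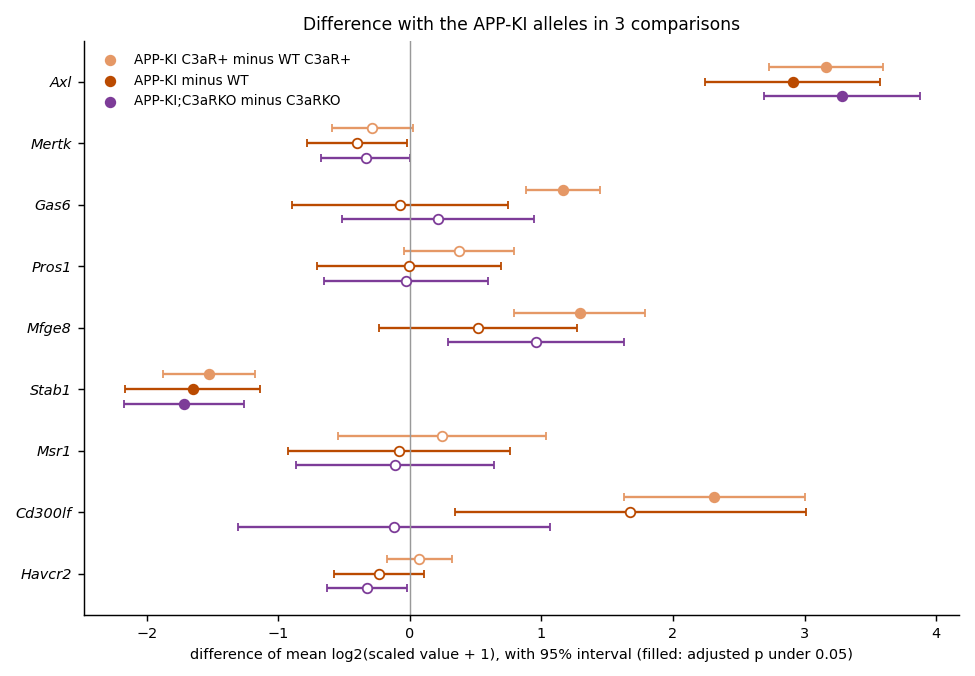
Difference of mean log2(scaled value + 1) with its 95% interval (horizontal axis) for the 9 genes in 3 comparisons of mice with and without the APP-KI alleles, filled where the adjusted p was under 0.05. Axl lies between 2.91 and 3.28 and Stab1 between -1.72 and -1.53, filled in all 3, whereas Gas6, Mfge8 and Cd300lf are filled in the C3aR+ comparison only.

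In the C3aR+ libraries 5 of the 9 genes passed, 4 higher (Axl, Gas6, Mfge8, Cd300lf) and 1 lower (Stab1), where 22.7% of the 12311 genes tested passed, 13% higher and 9.71% lower. The groups did not overlap for 6 of the 9 genes, which was so for 43.5% of all genes. Between APP-KI and WT 2 of 9 passed (Axl higher, Stab1 lower), against 4.14% of 12402 genes, 2.22% higher and 1.93% lower. The groups did not overlap for 4 of the 9 (Axl, Mertk, Stab1, Cd300lf), and for 29.3% of all genes. Between APP-KI;C3aRKO and C3aRKO Axl and Stab1 passed again, against 6.93% of all genes, 3.96% higher and 2.98% lower, and were the 2 genes of the 9 without overlap, against 13.7%. The median difference of the 9 genes was 0.37, -0.077 and -0.11 in the 3 comparisons, and that of all genes -0.17, -0.012 and -0.034. Without the 4 libraries with few symbols, 5 of 9 passed between APP-KI and WT (Axl, Mfge8 and Cd300lf higher, Mertk and Stab1 lower), where 27.9% of all genes did, and 5 of 9 between the knockouts (Axl, Gas6 and Mfge8 higher, Mertk and Stab1 lower), where 31.3% did, the latter against 1 C3aRKO library. With APP-KI replicate 5 also left out the counts were 3 of 9 against 15.7% and 5 of 9 against 34.3%. On the recovered reads edgeR passed 5, 2 and 2 of the 9 in the 3 comparisons, against 19.7%, 3.30% and 5.28% of all genes, and DESeq2 passed 5, 2 and 3, against 25.8%, 5.81% and 9.22%, with Mfge8 added between the knockouts. At an adjusted p under 0.0005, 3, 1 and 2 of the 9 passed, against 2.17%, 0.605% and 1.12%. Median ratio scaling moved the median of all genes in the C3aR+ comparison from -0.17 to -0.027 and the genes passing from 1602 higher and 1196 lower to 1843 higher and 605 lower. Under it the 9 genes kept their directions there, with Axl at 3.31, Gas6 at 1.31, Mfge8 at 1.43, Cd300lf at 2.45 and Stab1 at -1.38 all passing.

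Loss of C3ar1 was compared in mice without and with the APP-KI alleles. None of the 9 genes passed between C3aRKO and WT, or between APP-KI;C3aRKO and APP-KI, and none had an unadjusted p under 0.05 in either. The same count of 0 was obtained with edgeR and with DESeq2 on the recovered reads. Of all genes, 0.00806% passed in each, which was 1 gene, C3ar1 itself. The groups did not overlap for Gas6 alone between C3aRKO (163 to 218) and WT (225 to 308), against 18.5% of all genes, and for none of the 9 in the other comparison, against 1.61%. The difference for Axl was -0.55 (95% interval -1.21 to 0.12) between C3aRKO and WT and -0.17 (-0.76 to 0.42) between APP-KI;C3aRKO and APP-KI. For Stab1 it was -0.056 (-0.57 to 0.46) and -0.12 (-0.58 to 0.34). None of these 4 intervals includes a change of the size seen with the APP-KI alleles. For Cd300lf they were wide, with 1.16 (-0.18 to 2.50) and -0.64 (-1.83 to 0.55). The difference between these 2 effects, tested as an interaction, passed for 0 of all 12402 genes with limma, 0 with edgeR and 1 with DESeq2. It passed for none of the 9 genes, and none of the 9 had an unadjusted p under 0.05. It was 0.38 (-0.53 to 1.28) for Axl and -1.80 (-3.62 to 0.03) for Cd300lf, the latter at -0.52 without the libraries with few symbols, with 1 C3aRKO library.

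**Figure D4:**
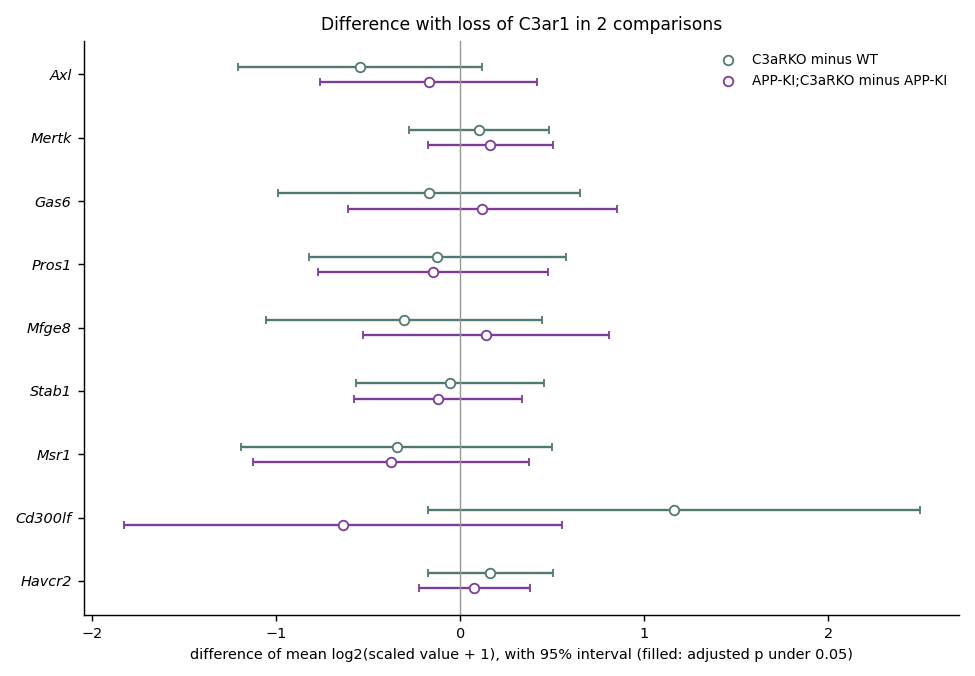
Difference of mean log2(scaled value + 1) with its 95% interval (horizontal axis) for the 9 genes with loss of C3ar1, between C3aRKO and WT and between APP-KI;C3aRKO and APP-KI. All 18 intervals include 0 and no point is filled, and those of Cd300lf are the widest.

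The C3aR+ libraries were set against the unselected ones in 1 fit of the 12 WT and APP-KI libraries. All C3aR+ libraries share 1 series of library numbers, so sort, reporter line and series cannot be told apart. None of the 9 genes passed between WT C3aR+ and WT or between APP-KI C3aR+ and APP-KI, and of all 12583 genes 0 did in each with limma and with edgeR, whereas DESeq2 passed 39 and 28, with 0 of the 9 among them. At an unadjusted p under 0.05 limma had 126 genes higher and 426 lower in the first and 200 higher and 457 lower in the second. Between WT C3aR+ and WT the groups did not overlap for 3 of the 9 (Gas6, Mfge8 and Havcr2, each lower in WT C3aR+), against 23.0% of all genes, and between APP-KI C3aR+ and APP-KI for none, against 6.07%. At an unadjusted p under 0.05 there was 1 of the 9 in each, and it was Gas6 both times, at -0.75 for WT C3aR+ against WT (limma adjusted p = 1) and at 0.76 for APP-KI C3aR+ against APP-KI (limma adjusted p = 0.82). The APP-KI difference was then compared between the sorts. It was larger in the C3aR+ libraries by 1.51 (95% interval 0.57 to 2.44) for Gas6 and by 1.01 (0.02 to 2.00) for Mfge8, the 2 genes of the 9 with an unadjusted p under 0.05, and neither passed (adjusted p = 0.39 and 0.42). Both became smaller without the library with few symbols, at 1.03 and 0.55. Over all settings tried, their lowest values were 0.81 and 0.34. The interaction was 0.64 (-0.49 to 1.77) for Axl, 0.08 (-0.39 to 0.55) for Mertk and 0.16 (-0.42 to 0.74) for Stab1.

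Genes that work with the 9 were described from 4 lists. Of 10 TAM partners, which include the third TAM receptor Tyro3 and the enzymes of the vitamin K cycle, Adam10 alone passed in the C3aR+ comparison (-0.39) and between APP-KI and WT (-0.70), and none between the knockouts. Adam10 is a membrane protease that sheds receptor ectodomains. Of 20 engulfment genes 18 were tested. In the C3aR+ comparison 3 were higher, namely Cd300lb (1.98), the integrin subunit Itgb3 (0.69) and calreticulin, Calr (0.60), and 3 were lower, namely Elmo1 (-0.77), the lipid exporter Abca1 (-0.53) and Cd300a (-0.46). Between APP-KI and WT 3 were lower, Elmo1 (-1.02), Cd300a (-0.91) and Abca1 (-0.75), and between the knockouts 2, Elmo1 (-0.91) and Abca1 (-0.77). Elmo1 acts with Dock1 to activate Rac during engulfment. No engulfment gene passed as higher in the unselected libraries, where few of all genes did (2.22% and 3.96%).

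Of 16 further scavenger receptors 13 were tested. In the C3aR+ comparison Cd68 (1.48), the lipoprotein receptor Scarb1 (1.36) and Cxcl16 (1.23) were higher, and Cd36 (-1.42), Cd163 (-1.38) and Mrc1 (-1.33) were lower. The latter 2 are also on the list of border macrophage markers. Scarb1 was higher and Mrc1 lower again between APP-KI and WT (1.27 and -1.69) and between the knockouts (1.35 and -1.20), where no other gene of the list passed. Of the 7 Tim-3 partners, 1 was higher and 2 lower both in the C3aR+ comparison and between APP-KI and WT. Between the knockouts 1 was lower. Ceacam1, a ligand of Tim-3, was lower in all 3 comparisons (-1.04, -1.28 and -1.09). The Src family kinase Fyn was higher in the first 2 (1.53 and 1.48). The medians of the 4 lists in the C3aR+ comparison lay between -0.31 and 0.0069, against -0.17 for all genes.

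Across the 20 libraries the genes most like Axl by Pearson's r of log2 values included Capg (r = 0.98) and Sulf2 (0.98). For Stab1 they were Crybb1 (0.98), Eef2k (0.97) and Idh2 (0.96), and for Mertk Inpp5d (0.96), Rere (0.94) and Slc1a3 (0.94). Gas6 was most like Eif5a (0.97), Atp5b (0.97) and Pip4k2c (0.96), Mfge8 most like Cox6a1 (0.97), Dap (0.97) and Chchd10 (0.96), and Pros1 most like Prps2 (0.96), Tmed5 (0.94) and Fam217b (0.94). For Cd300lf (Acbd4 0.90, Tcf25 0.89, Lmnb1 0.88), Havcr2 (Lman1 0.82, Ubl3 0.80, Appbp2 0.80) and Msr1 (Wwp1 0.79, Timm8a1 0.74, Atp6v1e1 0.73) the likeness was weaker. Among the 9, Axl went with Mfge8 (r = 0.85) and against Stab1 (-0.89) and Mertk (-0.84), and Gas6 went with Mfge8 (0.83) and Pros1 (0.82). These values are descriptions, since the libraries share genotypes, series and the split in symbols detected.

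**Figure D5:**
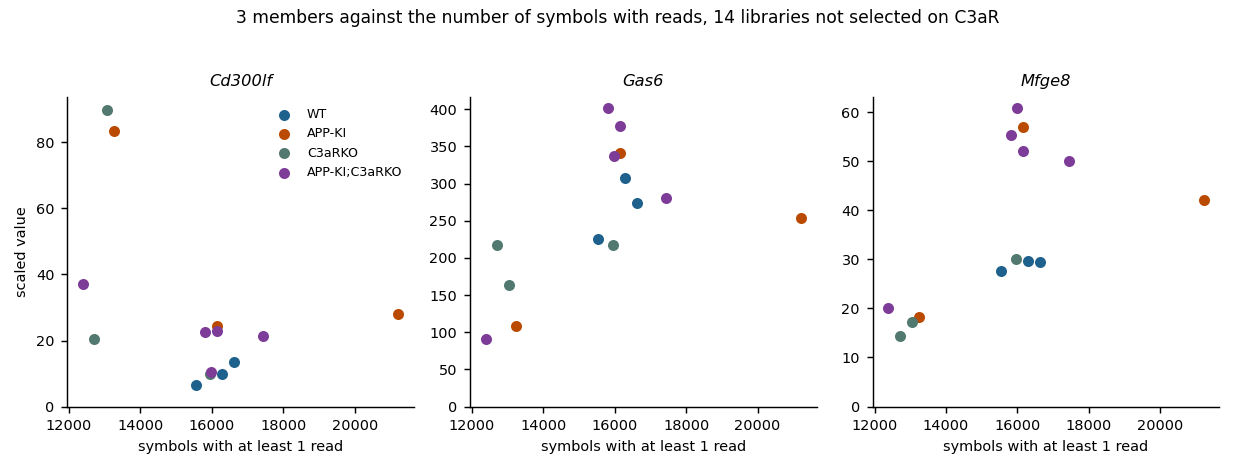
Scaled values of Cd300lf, Gas6 and Mfge8 (vertical axes, from 0) against the number of symbols with at least 1 read (horizontal axis) in the 14 libraries not selected on C3aR, coloured by condition. In the libraries with 12386 to 13249 symbols, Cd300lf lies between 20.3 and 89.7, Gas6 between 90.9 and 217 and Mfge8 between 14.3 and 20.01.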

How the data were processed

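RNA of sorted microglia was made into libraries with a total RNA kit with molecular identifiers. Whether duplicates were removed by them is not given in the sources used here. Per the labels and the study's methods, the authors used cutadapt, TopHat, featureCounts and DESeq2 with mm10. The deposited values are named FPKM but are a signal, reads of a gene over its library's upper quartile (the 75th percentile), without division by length. Whole reads were recovered for 100% of values (tolerance 0.05 read). The signal was multiplied by 35.1, and 11 duplicate rows were summed. The design had been written for normalized values, and its log-scale test was kept. Values per kb were divided by the exon union of GENCODE M21.

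After removal of genes whose scaled values averaged under 1, limma 3.58.1 (R 4.3.3, mean-variance trend) was run on log2(scaled value + 1), and p-values were adjusted by Benjamini-Hochberg over all genes of a fit. A fold is on this scale, which understates changes of low genes. The 6 C3aR+ libraries were fitted alone, the 14 others with a term for the series of library numbers, and the 12 WT and APP-KI libraries without one. The labels number the libraries of a group without naming animals, so p-values measure the spread between these libraries, which differed beyond sampling noise in every group. Other settings tried were 0.1 as the pseudocount, no filter or a minimum mean of 5, median ratio scaling, CPM for levels, limma without a trend, edgeR 4.0.16, DESeq2 1.42.0, an adjusted p under 0.0005, each replicate left out, a replicate block, no series term, a series term in the fit of 12, and only the 2 groups compared. Leaving out libraries by the number of symbols was chosen after seeing the data.

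The 9 genes and all lists were chosen with earlier results of these data known. All 9 are named, from each pathway list up to 4 genes that passed with the largest differences, and the 3 genes most like each of the 9. Cxcl16, Mrc1, Abca1 and Cd300a in the C3aR+ comparison and the cell type markers given were named after their values were seen. Genes that these rules name and that are left out of the text are not reported here. The tests were checked on simulated data.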

Additional observations from a re-analysis of the deposited data

Results flagged for a closer look

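Among the APP-KI;C3aRKO libraries, the only condition with more than 3 samples, Mfge8 in replicate 1 lay apart, with a scaled value of 20.01 against 49.97 to 60.8 in the other 4. The gap to the nearest value was 0.734 of the whole range, above Dixon's critical value of 0.71. It was 1 of 10 genes examined in this way (the 9 genes and C3ar1), and chance flags about 1 in 20 such groups. This library had reads for 12386 symbols, the fewest of all 20.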

How the results depend on the processing

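The count of genes passing among the 9 moved by over 1.5 times under few of the choices run. At an adjusted p under 0.0005 it fell from 5 to 3 in the C3aR+ comparison (Axl, Gas6 and Stab1) and from 2 to 1 between APP-KI and WT (Axl). Without the libraries with few symbols it rose from 2 to 5 both between APP-KI and WT and between APP-KI;C3aRKO and C3aRKO, the latter against 1 C3aRKO library, and it was 3 (1 APP-KI library) and 5 (1 C3aRKO library) when APP-KI replicate 5 was also left out. A lone library is assumed to vary like the other groups. Leaving out each replicate gave 5 in the C3aR+ comparison, 2 between APP-KI and WT and 2 to 3 between the knockouts. The other 6 comparisons stayed at 0. A replicate block left these counts at 5, 2 and 2, and changed no call among the 9. It had Axl at 0.31 between C3aRKO and WT and at 1.02 between APP-KI;C3aRKO and APP-KI, reversing both. WT and C3aRKO libraries share no replicate number, and APP-KI shares only numbers 4 and 5 with APP-KI;C3aRKO. With the block, C3ar1 loss was thus compared through few shared numbers or none. Same-numbered libraries had correlated deviations of -0.01 to 0.04 (C3aR+), 0.09 to 0.25 (WT with APP-KI) and -0.0020 to 0.22 (knockouts). Differently numbered libraries had -0.05 to 0.02, -0.22 to 0.20 and -0.23 to 0.24. These ranges overlapped and the labels name no animals, so the numbers were not taken to pair samples. With so few pairs, a pairing of WT with APP-KI was not excluded. The other reversals were of differences that did not pass. Between APP-KI and WT, Gas6 was 0.017 with DESeq2 and 0.20 and 0.22 without the libraries named, Pros1 0.041 with median ratio scaling and 0.0089 with DESeq2, and Msr1 0.082 with edgeR and 0.10 with DESeq2. Between APP-KI;C3aRKO and C3aRKO, Cd300lf was 0.86 and 0.89 without those libraries. Between C3aRKO and WT, Stab1 was 0.070 with only the 2 groups and 0.29 and 0.31 without those libraries, and Cd300lf -0.016 without the larger set. Between APP-KI;C3aRKO and APP-KI, Axl was 0.13 with no series term and 0.026 and 0.088 without those libraries, and its interaction with the sort was -0.027 without the larger set. Leaving out 1 replicate gave, in the C3aR+ comparison, -0.053 to 0.47 for Msr1 and -0.00072 to 0.13 for Havcr2, between APP-KI and WT -0.33 to 0.25 for Gas6, -0.12 to 0.25 for Pros1 and -0.52 to 0.23 for Msr1, between the knockouts -0.073 to 0.60 for Gas6 and -0.76 to 0.59 for Cd300lf, for Stab1 -0.32 to 0.11 with C3ar1 loss in WT and -0.24 to 0.039 in APP-KI, and for Axl -0.41 to 0.15 in APP-KI. The cause of these changes was not tested.

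Over all genes, the count passing was 2798 in the C3aR+ comparison (267 at 0.0005, and 1777 to 2528 with a replicate left out), 514 between APP-KI and WT (75 at 0.0005, 3510 and 1904 without the libraries named, 218 to 413 with a replicate left out) and 860 between the knockouts (139 at 0.0005, 3936 and 4158 without the libraries named, 400 with a replicate block, 443 with only the 2 groups, 614 to 1398 with a replicate left out). With loss of C3ar1 it was 1 in each comparison and 0 to 21 elsewhere, and for the sort and both interactions 0, with 0 to 120 elsewhere, the 120 with DESeq2. Of the 54 mean levels of a gene in a condition, 52 moved by less than 1 SD under median ratio scaling and 52 under CPM. Groups of 3 limit what could be seen for genes as variable as Cd300lf.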
